A study of Homo sapiens with 14 samples.

Results

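The BCL2 family genes were followed as 10 members, taken by symbol from a table of 28159 genes with 1 window each at a transcription start site. Every one of the 10 symbols matched 1 window, and all 10 passed the filter on low counts, which kept 25901 windows. Each window was 1000 bases long, and the value in it was the number of sequencing reads from chromatin immunoprecipitation (ChIP-seq) for RNA polymerase II carrying phosphate at Ser5 of the repeats in its tail, the state of polymerases that have just begun to transcribe and lie near start sites. The 3 members counted here as established human p53 targets were BBC3, PMAIP1 and BAX, and they were set beside 7 others, BAK1, BID, BIK, BMF, BCL2L11, BCL2L1 and MCL1.

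All libraries came from wild-type HCT116, a human colorectal carcinoma line with functional p53, after 3 h of treatment. The groups were 10 µM Nutlin3a with peptide (1 ChIP library), 0.1% DMSO with peptide (1), 10 µM Nutlin3a without peptide (2) and 0.1% DMSO without peptide (2). Nutlin3a keeps MDM2 from binding p53, which spares p53 from degradation, and DMSO is the solvent. The bivalent stapled peptide was introduced by electroporation at 10 µM, with 200 nM more in the medium, and cells without it were electroporated too and received water in its place. Each of the 4 conditions also had 2 inputs, sheared chromatin sequenced without immunoprecipitation. Both peptide ChIP libraries were replicate 2. The series names the question as whether a peptide that keeps p53 off Mediator, a large coactivator through which activators reach the polymerase, suppresses the p53 response.

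The BCL2 family sets whether the outer membrane of mitochondria stays intact. BAX and BAK1 are the effectors that form pores in it, releasing cytochrome c and starting the caspase cascade. BCL2L1 (BCL-XL) and MCL1 hold the effectors in check, and the BH3-only proteins BBC3 (PUMA), PMAIP1 (NOXA), BCL2L11 (BIM), BID, BIK and BMF relieve that check or activate the effectors. p53 is known to raise transcription of BBC3, PMAIP1 and BAX, which ties DNA damage to cell death, whereas BCL2L11 and BMF are known for answering loss of growth signals or of attachment.

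Total counts in the windows were 1290223 to 2240951 in the 6 ChIP libraries and 161719 to 359276 in the 8 inputs. The labels do not say whether replicates were separate cultures, so p-values may measure only technical spread. The replicate 1 libraries stood apart from the rest on the first principal component (53.3% of the variance), at −112 for Nutlin3a and −33.0 for DMSO, against 16.2 to 46.5 for the 4 replicate 2 libraries. Colon epithelial markers were higher in ChIP than in input in 4 of 6 windows (edgeR, adjusted p under 0.05), and 0 of 11 tested windows of blood, mesenchymal and silent tissue genes were. The summed level of the blood markers was 52.8 and 23.4 CPM (reads scaled to a common library total with TMM factors) in Nutlin3a replicates 1 and 2, against 20.7 and 21.1 CPM in the DMSO replicates. It was 27.7 CPM and 23.0 CPM in the Nutlin3a and DMSO libraries with peptide. The mesenchymal sum was 49.7 CPM in Nutlin3a replicate 1 and 17.4 to 48.2 CPM in the other 5 ChIP libraries, and the silent-tissue sum 39.8 CPM against 17.4 to 34.2 CPM, so all 3 sums were highest in Nutlin3a replicate 1. None of the marker windows was at 0 in every ChIP library, and the part of these levels in the members' values was not tested.

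The windows were not placed the same way on both strands. On the plus strand the most common placement ran from 300 bases upstream of the RefSeq start site into the gene (7161 of 9216 matched genes), and on the minus strand from 700 bases upstream (7249 of 8793). PMAIP1, BAX and BCL2L11, on the plus strand, had the first placement. BAK1, BID, BMF and BCL2L1, on the minus strand, had the second, so their windows held mostly sequence upstream of that start site. The BBC3 window (chr19:47230900-47231899, hg38) lay wholly inside the annotated gene, 961 bases short of its outer end. The BCL2L1 window also lay wholly inside its annotated gene, 395 bases from the end, around a start site that RefSeq lists further in. No member's window overlapped the window of another gene. The other windows were PMAIP1 at chr18:59899696-59900695, BAX at chr19:48954575-48955574, BAK1 at chr6:33579977-33580976, BID at chr22:17773743-17774742 and BIK at chr22:43110450-43111449. BMF lay at chr15:40108580-40109579, BCL2L11 at chr2:111120614-111121613, BCL2L1 at chr20:31722569-31723568 and MCL1 at chr1:150579311-150580310.

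Promoter sequence (250 bases before to 50 after the start site, RefSeq, GRCh38.p14) was matched for 8 members, and for 7 of them the start site was the one that set the window. BIK and MCL1 were not matched, and for BBC3 the listed promoter lay outside the counted window. The 4 printed here are those with a p53 motif match or, for BAX, with repeated E-boxes. The p53 motif was searched on both strands as a pair of decamers of the p53 half-site consensus with up to 3 bases between them, at most 3 mismatches in 20 positions, and the C and G of each core intact. Capitals mark the match in PMAIP1, BAK1 and BCL2L1, and the palindrome CACGTG, an E-box, in BAX.
PMAIP1, chr18:59899746-59900045, plus strand: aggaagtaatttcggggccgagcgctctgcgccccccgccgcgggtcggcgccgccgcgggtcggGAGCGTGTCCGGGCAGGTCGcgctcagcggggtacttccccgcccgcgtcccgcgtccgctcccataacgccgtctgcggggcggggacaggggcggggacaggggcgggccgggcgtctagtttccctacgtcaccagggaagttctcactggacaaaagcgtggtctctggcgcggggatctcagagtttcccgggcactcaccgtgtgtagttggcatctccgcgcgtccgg
BAX, chr19:48954625-48954924, plus strand: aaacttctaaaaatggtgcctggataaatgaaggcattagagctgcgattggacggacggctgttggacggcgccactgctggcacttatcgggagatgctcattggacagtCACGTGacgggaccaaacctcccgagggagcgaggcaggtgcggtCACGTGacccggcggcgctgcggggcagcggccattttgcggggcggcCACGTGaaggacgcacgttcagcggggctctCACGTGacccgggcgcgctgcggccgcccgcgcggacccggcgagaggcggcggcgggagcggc
BAK1, chr6:33580227-33580526, minus strand: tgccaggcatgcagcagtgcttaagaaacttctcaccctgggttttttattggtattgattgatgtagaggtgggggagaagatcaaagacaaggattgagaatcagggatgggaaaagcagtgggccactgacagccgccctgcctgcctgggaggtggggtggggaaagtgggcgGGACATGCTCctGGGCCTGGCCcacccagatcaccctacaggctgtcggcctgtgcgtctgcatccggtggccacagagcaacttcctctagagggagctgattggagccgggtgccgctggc
BCL2L1, chr20:31722819-31723118, minus strand: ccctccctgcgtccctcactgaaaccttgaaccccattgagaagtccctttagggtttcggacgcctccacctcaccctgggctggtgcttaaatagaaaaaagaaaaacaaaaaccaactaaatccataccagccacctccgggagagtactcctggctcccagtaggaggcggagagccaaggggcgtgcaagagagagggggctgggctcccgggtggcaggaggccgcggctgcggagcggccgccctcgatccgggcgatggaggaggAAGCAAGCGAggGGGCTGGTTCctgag

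The PMAIP1 match lay between bases −185 and −166 from the start site with 3 mismatches and no spacer, the BAK1 match between −73 and −52 with 2 mismatches, and the BCL2L1 match between 23 and 44, downstream of the start, with 3. Among 27305 promoters of the same length, 4.70% held such a match, and 3 of the 8 member promoters did. These 8, here and for the motifs that follow, include the listed BBC3 promoter, which lay outside the counted window. With 2 mismatches only BAK1 remained (1.02% of all promoters), and with no spacer only PMAIP1 (1.07%). The BAX promoter held CACGTG 4 times, and 5 of the 27305 promoters held it 4 or more times, while 7.28% held it at all. The E-box and the next 3 motifs were picked after the sequences were seen. GGGCGG, the GC box, was present on either strand in 7 of 8 members (43.8% of all promoters), CCAAT in 5 (35.6%) and TATAAA in 0 (12.1%). G and C made up 48.0% of the bases in BBC3 to 78.0% in BID, with a median of 58.0% over all promoters. A match describes letters in the sequence and says nothing of binding.

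ChIP against input asked which of these windows held more reads in ChIP than in input, averaged over the 4 conditions. In the fit to all 14 libraries, 6 of 10 members were higher in ChIP than in input and 1, BMF, was lower, against 25.1% and 15.5% of the 21504 tested windows (edgeR quasi-likelihood, adjusted p under 0.05). PMAIP1 was the highest, at a log2 ratio of 2.04 ± 0.24 (SE) or 4.12-fold (adjusted p = 1.24e-07). The anti-apoptotic MCL1 (1.82 ± 0.25, adjusted p = 1.03e-06) and BCL2L1 (1.79 ± 0.23, adjusted p = 5.49e-07) came next, followed by BAX (1.38 ± 0.28, adjusted p = 0.000253), BCL2L11 (0.88 ± 0.25, adjusted p = 0.00747) and BBC3 (0.87 ± 0.32, adjusted p = 0.0296). BAK1 (0.61), BIK (0.39) and BID (0.17) did not pass. BMF was at −1.70 ± 0.31 (adjusted p = 7.94e-05), with 16 to 37 reads in the ChIP libraries, the lowest count of the family in all 6. Each library was scaled to its own reads in the windows, so the ratio ranks windows and is no absolute enrichment. The ratio averages DMSO and Nutlin3a libraries, and DMSO alone was not tested against input. At BBC3 the DMSO ChIP libraries, with and without peptide, held 21.6 to 30.2 CPM, against 11.2 to 32.6 CPM in the DMSO inputs. The Nutlin3a ChIP libraries held 63.6 to 79.8 CPM there, against 12.4 to 61.0 CPM in the Nutlin3a inputs. The BBC3 call ended when any one of DMSO replicate 1, DMSO replicate 2, Nutlin3a replicate 1 or Nutlin3a replicate 2 was left out (log2 ratio 0.81, adjusted p from 0.0742 to 0.0798). With total counts the calls of BBC3 (0.58) and BCL2L11 (0.58) ended, and with windows of mean count at least 50 alone those of BBC3 (0.23), BCL2L11 (0.23) and BAX (0.74).

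**Figure D1:**
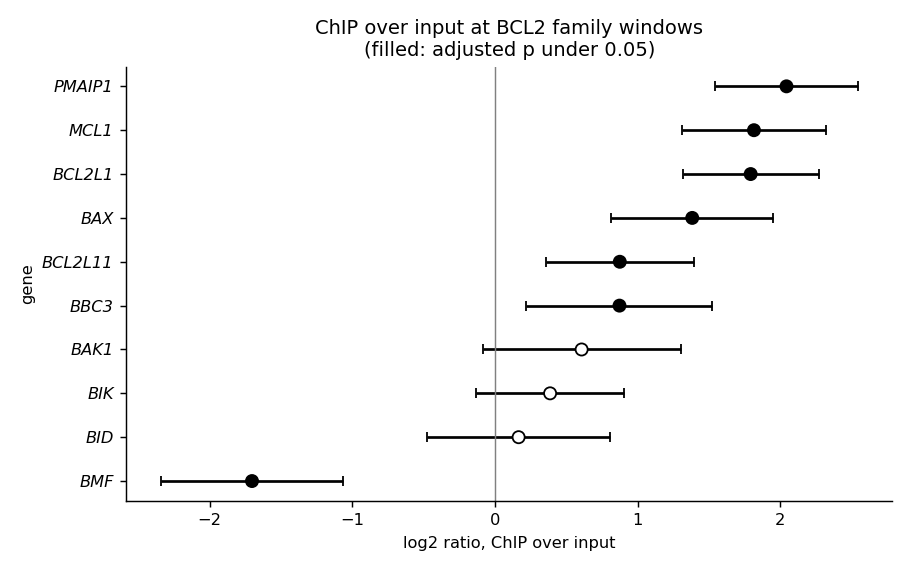
Log2 ratio of ChIP over input (horizontal axis) for each of the 10 members, from the fit to 6 ChIP and 8 input libraries; bars are 95% intervals and filled points passed an adjusted p of 0.05. PMAIP1, MCL1 and BCL2L1 lie between 1.79 and 2.04, and BMF lies at −1.70.

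Levels are given per window of the same length, but the windows cover different stretches around the start site, as described above, so the order of the genes also carries that placement. Mean CPM over the 6 ChIP libraries ran from 176 ± 27.9 (SD, n = 6) at PMAIP1 through 150 ± 27.5 at BCL2L1, 147 ± 28.6 at MCL1, 97.1 ± 22.2 at BAX and 88.8 ± 18.0 at BCL2L11 to 50.1 ± 6.71 at BIK, 46.9 ± 25.4 at BBC3, 39.9 ± 3.96 at BAK1, 36.7 ± 7.26 at BID and 13.8 ± 2.58 at BMF. In this order PMAIP1, BCL2L1 and MCL1 lay within 1 SD of their neighbours, as did BAX and BCL2L11, BIK and BBC3, and BAK1 and BID. The step from BBC3 to BAK1 was larger than the SD of BAK1 (3.96) and smaller than that of BBC3 (25.4). These SDs span treated and untreated libraries. With DMSO and no peptide BBC3 averaged 21.7 CPM, below BAK1 (37.6), BID (40.5) and BIK (45.8). The steps from MCL1 to BAX, from BCL2L11 to BIK and from BID to BMF were larger than the SD of either neighbour. BBC3 varied the most among libraries, with a coefficient of variation of 54.1%, against 9.93% to 22.8% for the other 9 members. Input levels averaged 30.0 ± 19.2 CPM (SD, n = 8) at BBC3, 54.2 ± 33.0 at PMAIP1 and 44.4 ± 23.7 at BAX.

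**Figure D2:**
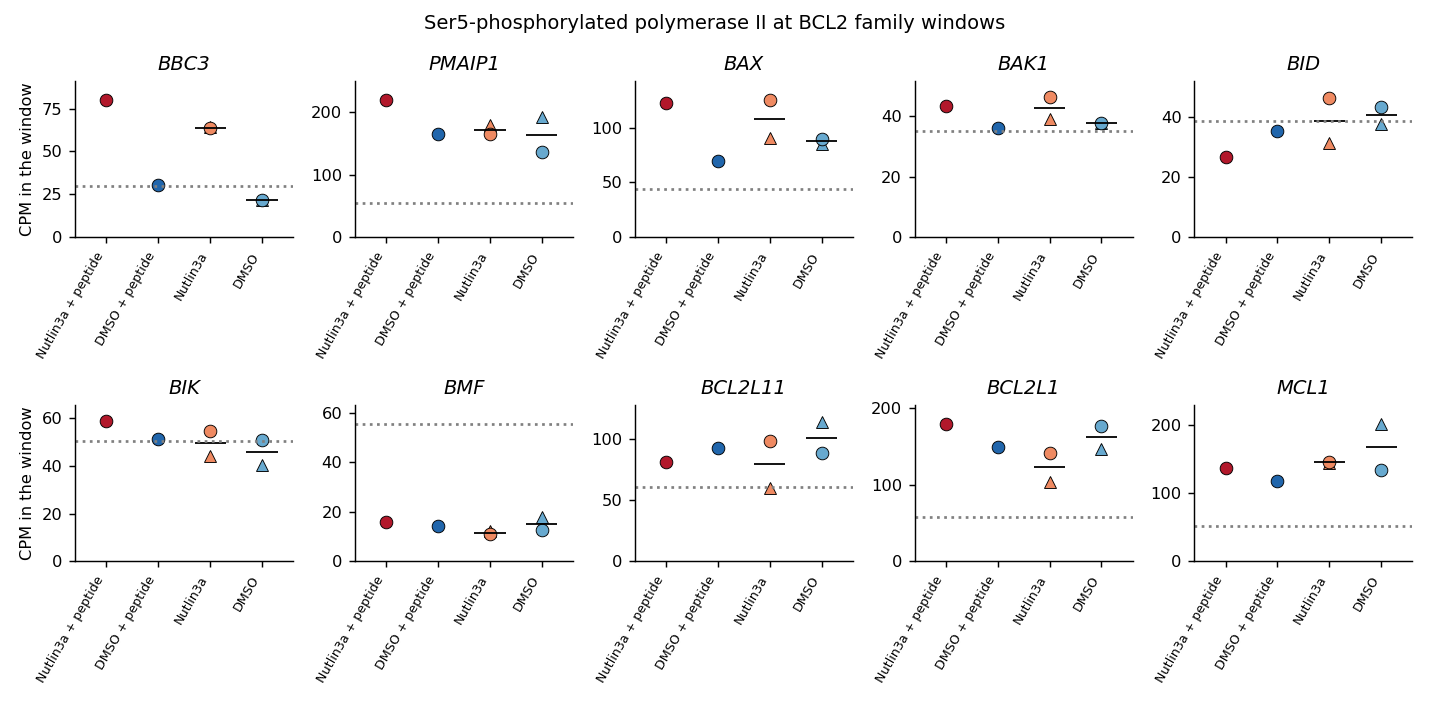
CPM in the window (vertical axis, from 0) in each ChIP library for the 10 members; triangles are replicate 1, circles replicate 2, bars the mean of 2 libraries, and the dotted line the mean of the 8 inputs. At BBC3 the Nutlin3a libraries lie at 63.6 to 79.8 CPM and the DMSO libraries at 21.6 to 30.2 CPM; at the other 9 members the groups lie closer together.

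Nutlin3a against DMSO without peptide asked which of these promoters gained or lost polymerase after p53 was stabilised. BBC3 had the largest ratio of the family, 2.94-fold. The windows of the other targets differed less, with BAX at 1.24-fold and PMAIP1 at 1.05-fold. Over all 25901 windows, 0.00772% passed in either direction, and 0 of the 10 members did, with BBC3 at an adjusted p of 0.0986 (edgeR quasi-likelihood). At an unadjusted p under 0.05 the count was 1 of 10, BBC3, against 2.32% of all windows, and DESeq2 called BBC3 (adjusted p = 0.0415) where limma-voom did not (0.159).

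At BBC3 the reads numbered 84 and 106 in the Nutlin3a replicates, against 45 and 42 in the DMSO replicates. Scaled, these were 64.2 and 63.6 CPM with Nutlin3a and 21.7 and 21.6 CPM with DMSO, so the groups did not overlap and the replicates of each lay closer together than their counting error, which was 9.71% to 10.9% with Nutlin3a and 14.9% to 15.4% with DMSO. The fitted log2 fold change was 1.56 ± 0.26 (SE, n = 2 per group), with a 95% interval of 2.00-fold to 4.34-fold, and BBC3 ranked 5 among all windows by p. The ratio was nearly the same in each replicate number, at 1.52 in replicate 1 and 1.51 in replicate 2. Leaving out 1 library moved the log2 fold change only between 1.55 and 1.58, while the adjusted p went from 0.000531 without Nutlin3a replicate 1 and 0.00748 without Nutlin3a replicate 2 to 0.0506 without DMSO replicate 1 and 0.446 without DMSO replicate 2. In each of these fits the group left with 1 library was assumed to vary like the pair that remained, so the p-values say little about stability. The inputs at this window held 6 and 10 reads with Nutlin3a and 3 and 4 with DMSO, and over all 8 inputs the log2 ratio of Nutlin3a to DMSO was 0.97 ± 0.52 (adjusted p = 0.882, edgeR). Of the 10 members 0 passed in the inputs, as did 0% of windows, and BAK1 alone had an unadjusted p under 0.05, against 5.49% of windows. This BBC3 input ratio rests on 2 to 15 reads a library, and its part in the ChIP ratio was not tested.

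Further windows lay inside the annotated BBC3 gene, those of the microRNA genes MIR3190 (chr19:47226642-47227641) and MIR3191 (chr19:47226720-47227719), which overlap each other. They lie 3259 and 3181 bases downstream of the BBC3 window in the direction of BBC3 transcription. MIR3190 had 137 and 185 reads with Nutlin3a, against 129 and 156 with DMSO, or 105 and 111 CPM against 62.2 and 80.4 CPM, and the groups did not overlap. Its fold change was 1.51 (log2 0.60 ± 0.22, SE) and that of MIR3191 1.57 (log2 0.65 ± 0.22), each with an adjusted p of 0.982 (edgeR). With peptide the MIR3190 pair stood at 119 CPM with Nutlin3a and 67.8 CPM with DMSO, a log2 ratio of 0.80. ChIP reads do not tell the strand of transcription, so polymerase on BBC3 and on these microRNA genes cannot be told apart there.

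PMAIP1, a BH3-only gene that binds MCL1, had the highest mean level of the family over the 6 ChIP libraries and showed no separation. It ranked 1 in both Nutlin3a replicates and 2 in both DMSO replicates, where MCL1 or BCL2L1 had more reads. It had 178 and 165 CPM with Nutlin3a and 192 and 136 CPM with DMSO, so the groups overlapped. The log2 fold change was 0.07 ± 0.23 (SE, n = 2 per group, adjusted p = 0.986 by edgeR), and its 95% interval of 0.743-fold to 1.47-fold ended below the lower bound for BBC3. Replicate 1 gave a log2 ratio of −0.11 and replicate 2 one of 0.28, and the fitted value was −0.16 without DMSO replicate 2 and 0.34 without DMSO replicate 1.

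BAX, the effector among the targets, had 90.2 and 125 CPM with Nutlin3a and 85.3 and 89.7 CPM with DMSO. Both Nutlin3a libraries lay above both DMSO libraries, replicate 1 by a small margin. Such a separation was found in 16.1% of all windows in that direction and in 3 of 10 members (BBC3, BAX and BAK1). The log2 fold change of BAX was 0.31 ± 0.23 (SE, n = 2 per group, adjusted p = 0.982 by edgeR), or 1.24-fold with an interval of 0.886 to 1.73. It was 0.08 in replicate 1 and 0.48 in replicate 2, and leaving out Nutlin3a replicate 2 brought the fit to 0.06 and leaving out Nutlin3a replicate 1 to 0.52.

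BAK1, the other effector, had 39.0 and 46.2 CPM with Nutlin3a and 37.6 in both DMSO libraries, with a log2 fold change of 0.18 ± 0.28 (SE). Among the BH3-only genes outside the targets, BIK was at 0.12 ± 0.26, BID at −0.05 ± 0.30, BCL2L11 at −0.34 ± 0.25 and BMF at −0.40 ± 0.46. BCL2L11 had 59.6 and 98.4 CPM with Nutlin3a and 113 and 88.1 CPM with DMSO. Its replicates pointed in opposite directions, with log2 ratios of −0.91 in replicate 1 and 0.16 in replicate 2, and of these pairs only replicate 1 was negative. BMF had 16 and 18 reads with Nutlin3a and 37 and 24 with DMSO, the fewest of the family, and its interval began at 0.385-fold and included no change.

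The anti-apoptotic genes had negative values that did not pass the test. BCL2L1 had 104 and 142 CPM with Nutlin3a, against 147 and 176 CPM with DMSO, and so lay lower in both replicates, with log2 ratios of −0.50 and −0.31. Its fitted log2 fold change was −0.39 ± 0.23 (SE, n = 2 per group, adjusted p = 0.982 by edgeR). It was −0.62 without Nutlin3a replicate 2, −0.19 without Nutlin3a replicate 1 and −0.25 without DMSO replicate 2. Another window inside the annotated BCL2L1 gene, that of ABALON, lay 363 bases away. Its log2 ratios were 0.19 in replicate 1 and −0.41 in replicate 2, with a fit of −0.11 ± 0.29 (SE). BCL2L1 and BMF were the 2 members whose Nutlin3a libraries both lay below both DMSO libraries, as did 15.7% of all windows. At BMF the margin was small, with 12.2 CPM in Nutlin3a replicate 1 and 12.4 CPM in DMSO replicate 2, less than the counting error. MCL1 had 145 and 146 CPM with Nutlin3a and 202 and 134 CPM with DMSO, with a log2 fold change of −0.21 ± 0.24. The high value of DMSO replicate 1 decided its sign, which turned to 0.12 without that library.

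The signs of the small changes depended on the scaling. The authors' constants, which multiply each library's counts, moved the median log2 fold change of all windows to 0.53, against 0.04 with TMM. The constant of Nutlin3a replicate 1 was 1.82, and those of the other 5 ChIP libraries lay between 0.595 and 0.748. With them BID (0.37), BMF (0.08), BCL2L11 (0.04), BCL2L1 (0.06) and MCL1 (0.28) turned positive. Relative to that median, these 5 stayed negative (from −0.50 to −0.16) and BBC3 stood at 1.53.

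**Figure D3:**
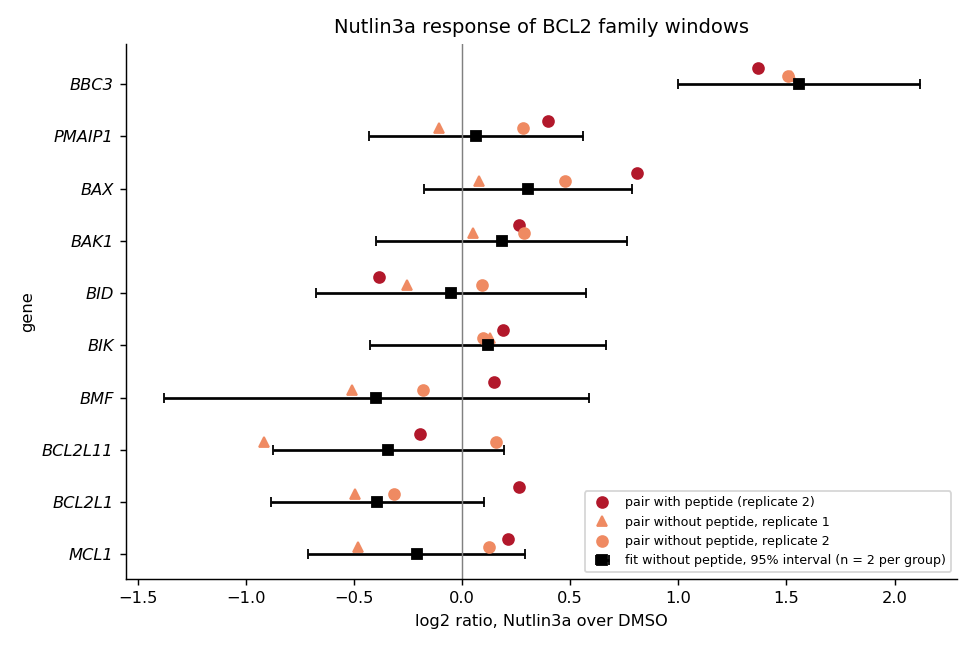
Log2 ratio of Nutlin3a over DMSO (horizontal axis) for each member; squares are the fit without peptide with 95% intervals, orange symbols the ratio within replicate 1 (triangle) and replicate 2 (circle), and red circles the pair with peptide. At BBC3 all 3 pairs lie between 1.37 and 1.52, with the replicate 1 symbol hidden under that of replicate 2; for the other 9 members the interval includes 0.

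A ratio of raw counts within a library needs no scaling, so BBC3 was also read against the other 9 members. BBC3 reads per PMAIP1 read were 0.361 and 0.385 with Nutlin3a, against 0.113 and 0.160 with DMSO. Per MCL1 read they were 0.444 and 0.434 with Nutlin3a, against 0.107 and 0.162 with DMSO. Per BAX read they were 0.712 and 0.507 with Nutlin3a, against 0.254 and 0.241 with DMSO. The groups did not overlap in any of these ratios. Over the 9 other members and the 3 pairs, with peptide included, the Nutlin3a to DMSO fold of the ratio was above 1 in 27 of 27 cases, from 1.49 (BAX with peptide) to 5.62 (BCL2L11 in replicate 1). These cases share the BBC3 counts and are not independent. BBC3 had the largest Nutlin3a to DMSO ratio of the family in each of the 3 pairs. Folds above 1 follow from that and add no separate support, and the share of other windows with such ratios was not counted. BBC3 held the ninth place by reads in each of the 3 DMSO libraries, and with Nutlin3a it held rank 5 in replicate 1 and rank 6 in the other 2 libraries. A ratio shows unequal change and not which gene stayed constant.

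**Figure D4:**
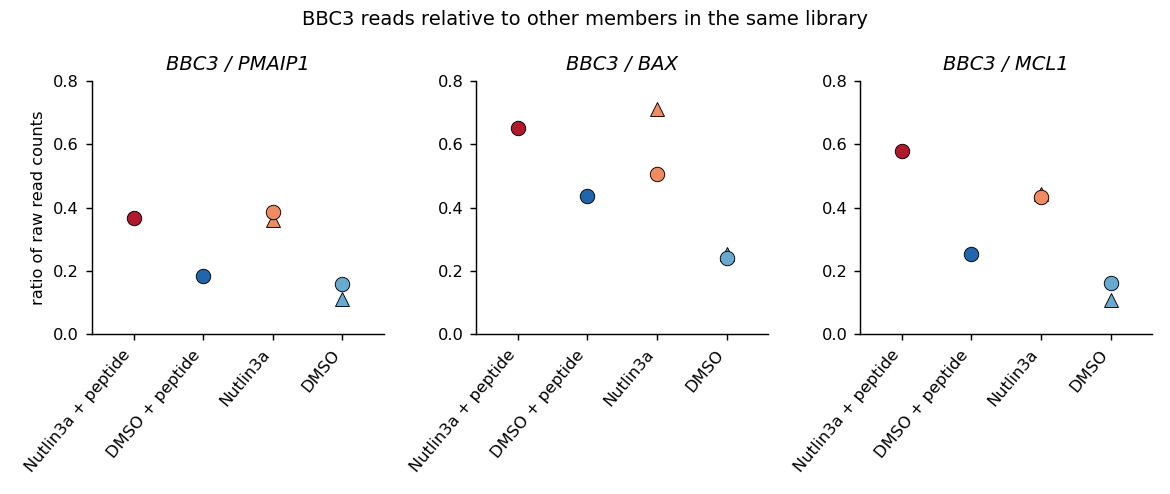
Ratio of raw read counts of BBC3 to PMAIP1, BAX and MCL1 (vertical axis) in each ChIP library; triangles are replicate 1 and circles replicate 2. In each panel the Nutlin3a libraries lie above the DMSO libraries, with BBC3 to MCL1 at 0.434 to 0.579 with Nutlin3a and 0.107 to 0.255 with DMSO.

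With peptide, Nutlin3a against DMSO compared 1 library with 1 library, so values are given without a test or replicate check. BBC3 had 179 reads (79.8 CPM) with Nutlin3a and 54 reads (30.2 CPM) with DMSO, a log2 ratio of 1.37 or 2.58-fold. BAX had 123 CPM with Nutlin3a and 69.4 CPM with DMSO, a log2 ratio of 0.81 or 1.75-fold. PMAIP1 had 218 CPM with Nutlin3a and 165 CPM with DMSO, a log2 ratio of 0.40 or 1.32-fold. BBC3 and BAX were the members past 1.5-fold higher, as were 10% of all windows, and 0 members were past 1.5-fold lower, as were 11.4%. BAK1 was at 0.26, BCL2L1 at 0.26, MCL1 at 0.21, BIK at 0.19, BMF at 0.15, BCL2L11 at −0.19 and BID at −0.38. In all 3 pairs with and without peptide the log2 ratio was above 0 at 4 members, BBC3, BAX, BAK1 and BIK, against 14.6% of all windows, and below 0 at 0 members, against 13.2%.

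The difference between the Nutlin3a responses asked whether the peptide changed the response. It passed at 0 of 10 members and 0% of all windows (edgeR, adjusted p under 0.05), with 0 members and 1.05% of all windows at an unadjusted p under 0.05, and DESeq2 and limma-voom called 0 windows each. For BBC3 the difference in log2 was −0.16 ± 0.44 (SE), or a response with peptide 0.896 of that without it, with a 95% interval of 0.468 to 1.72. That interval includes no change, a lower response and a higher one. BAX was at 0.51 ± 0.39 (0.803-fold to 2.54-fold) and PMAIP1 at 0.34 ± 0.40 (0.700-fold to 2.27-fold). These values rested in part on single libraries. PMAIP1 was at 0.0609 when DMSO replicate 1 was left out and at 0.56 when DMSO replicate 2 was, and BAX at 0.30 without Nutlin3a replicate 1. BCL2L1 had the largest difference, 0.66 ± 0.40 (0.879-fold to 2.83-fold), and BMF the widest interval (0.466-fold to 4.62-fold). MCL1 was at 0.42 (0.0964 when DMSO replicate 1 was left out, 0.68 when DMSO replicate 2 was), BCL2L11 at 0.15, BAK1 at 0.09, BIK at 0.07 and BID at −0.35. Over the 10 members the median fitted difference, which has replicate 1 libraries in the arm without peptide alone, was 0.24 with 8 positive, against a median of −0.01 over all windows. The lone peptide libraries were assumed to vary like the pairs without peptide, so intervals of this width limit what can be said. Within the 4 replicate 2 libraries, which match the peptide libraries by number, 6 of the 10 differences were positive and their median was 0.0906, against −0.00316 over all windows. They were 0.58 at BCL2L1, 0.33 at BAX, 0.33 at BMF, 0.12 at PMAIP1, 0.0937 at BIK and 0.0874 at MCL1. They were −0.0237 at BAK1, −0.14 at BBC3, −0.35 at BCL2L11 and −0.48 at BID, so BAK1 and BCL2L11 turned sign.

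Under Nutlin3a, peptide against no peptide gave no call at any member, and 0% of all windows passed, with 0 members and 2.44% of all windows at an unadjusted p under 0.05. BBC3 had 79.8 CPM with peptide, against 64.2 and 63.6 CPM without it, a log2 fold change of 0.32 ± 0.29 (SE). BCL2L1 had 180 CPM with peptide, against 104 and 142 CPM without it (0.55 ± 0.28), and BID 26.8 CPM with peptide, against 31.3 and 46.2 CPM without it (−0.54 ± 0.37). Under DMSO, again 0 members and 0% of all windows passed, with 0 members and 1.52% of all windows at an unadjusted p under 0.05. BBC3 had 30.2 CPM with peptide, against 21.7 and 21.6 CPM without it (0.48 ± 0.33), and MCL1 119 CPM with peptide, against 202 and 134 CPM without it (−0.50 ± 0.30). BBC3 thus lay higher with peptide under either treatment, by less than the test could call, and with the authors' constants the value under Nutlin3a was −0.01. In both comparisons DESeq2 and limma-voom called 0 windows. The fits set peptide libraries of replicate 2 alone against libraries of replicates 1 and 2 without peptide, so they also carry differences between replicates. Within replicate 2 the log2 ratio of peptide to none under Nutlin3a was 0.32 at BBC3, 0.34 at BCL2L1 and −0.76 at BID. Under DMSO the ratio within replicate 2 was 0.46 at BBC3 and −0.17 at MCL1.

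**Figure D5:**
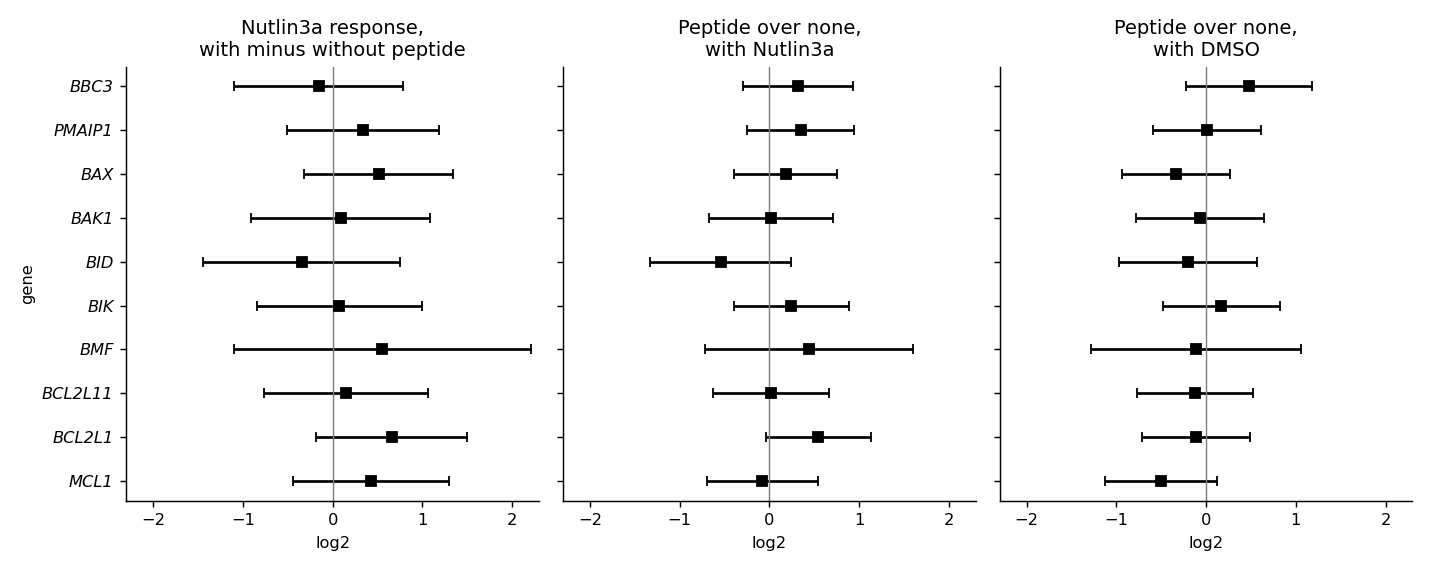
Log2 values with 95% intervals for each member in 3 comparisons from 1 fit: the Nutlin3a response with minus without peptide, peptide over none with Nutlin3a, and peptide over none with DMSO. Every interval includes 0, and at BBC3 the 3 values are −0.16, 0.32 and 0.48.

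The windows whose level followed BBC3 most closely over the 6 ChIP libraries were those of GDF15 (Pearson r = 0.996), MIR3189 (0.993) and MDM2 (0.990), of 11460 windows with a mean count of at least 50. GDF15, a stress cytokine, and MDM2, the ligase that degrades p53, are known p53 targets, and the MIR3189 window overlaps that of GDF15. For PMAIP1 the closest were CRACR2A (0.990), KPTN (0.988) and ZNF564 (0.980). For BAX they were CEBPZOS (0.973), FBXO22 (0.966) and the other effector BAK1 (0.962). These correlations rest on 6 points that share libraries and on a search through all windows, and describe likeness only.

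Other genes of the mitochondrial death pathway gave no call in Nutlin3a against DMSO without peptide (edgeR, adjusted over all windows). Of 11 further BCL2 family genes, 0 passed and 6 were positive, with a median log2 fold change of 0.03, against 0.04 over all windows. BOK, an effector relative, was at −0.57 ± 0.23 (SE), with 62 and 105 reads with Nutlin3a and 181 and 150 with DMSO, and BAD, a BH3-only gene, at −0.34 ± 0.22. Of 10 caspase and apoptosome genes 5 were positive (median 0.02), with PIDD1, which activates caspase-2, at −0.34. Of 8 inhibitors of apoptosis and their antagonists 5 were positive (median 0.01), with XIAP, which binds caspases, at −0.48 and BIRC5 (survivin) at −0.19. Of 8 genes for mitochondrial channels and fission 1 was positive (median −0.23), with VDAC3 at −0.33 and VDAC1 at −0.24, both pores of the outer membrane. Of 5 genes of MCL1 turnover 3 were positive (median 0.01), with the ligase genes FBXW7 at −0.46 and MARCHF5 at −0.22. The genes named so far had the smallest p of their lists, and the share of all windows with a positive value was not counted. In the order above, the highest value in each list was 1.22 (BCL2A1), 0.92 (CASP10), 0.04, 0.01 and 0.21. BCL2A1 and CASP10 held only 4 to 14 reads in each library without peptide. With the authors' constants the median of all windows was shifted as given above, so the negative values here hold only relative to other windows.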

How the data were processed

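Per the submitters' processing notes the genome build was hg38. The authors deposited unscaled read counts for every window and, per the file headers, a scaled signal that equalled the counts times 1 constant per ChIP library (0.595 to 1.82). Aligner, counting tool and filters: not given in the sources used here. Counts were tested in edgeR 4.0.16 (R 4.3.3; TMM, filterByExpr with minimum count 10, quasi-likelihood test) with 4 group means over 6 ChIP libraries, with 2 residual degrees of freedom (biological coefficient of variation 26.0%). ChIP against input used all 14 libraries. P-values were adjusted by Benjamini-Hochberg over all windows, at a threshold of 0.05. Errors are standard errors of the fit. Log2 ratios of single pairs used a prior count of 2, and input CPM used total counts. Alternatives included DESeq2 1.42.0 and limma-voom (limma 3.58.1).

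The members and lists were chosen with earlier results of these data known. All members were named, plus, from each further list, genes past the threshold or otherwise the 2 with the smallest p (1 such gene is not reported here), and for each target the 3 most alike windows. In simulated data for Nutlin3a against DMSO (24520 windows), 1.49% of 67 windows changed 1.5-fold were recovered. Of 67 windows changed 2-fold 31.3% were recovered, and of 66 changed 4-fold 92.4%. A window that did not pass may thus still have changed by 1.5-fold or by 2-fold. The RefSeq tables of GRCh38.p14 matched 94.5% of symbols.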

Additional observations from a re-analysis of the deposited data

Results flagged for a closer look

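At BCL2L1 and BMF both Nutlin3a pairs without peptide lay below 0 and the pair with peptide lay above 0. The share of all windows with this pattern was not counted, so it cannot be called particular to these members. For BCL2L1 the log2 ratio was 0.26 with peptide, against −0.50 and −0.31 without it, and the fitted difference was 0.66 (95% interval from −0.19, including 0). At ABALON, inside the annotated BCL2L1 gene, the log2 ratio was 0.67 with peptide, against 0.19 and −0.41 without it. For BMF it was 0.15 with peptide, against −0.51 and −0.18 without it, and the fitted difference was 0.55 (−1.10 to 2.21). The BMF window held 16 to 37 reads in the ChIP libraries and was lower in ChIP than in input (log2 ratio −1.70). Within the replicate 2 libraries alone the difference was 0.58 at BCL2L1 and 0.33 at BMF. The fitted BMF difference was 0.26 without DMSO replicate 1 and 0.78 without DMSO replicate 2. That of BCL2L1 lay between 0.45 without Nutlin3a replicate 1 and 0.89 without Nutlin3a replicate 2. The test of the difference did not pass for either (adjusted p = 1.00 each by edgeR).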

How the results depend on the processing

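Nutlin3a against DMSO without peptide called 2 windows in the fit reported, 8 with total counts, 8 with DESeq2, 4 with limma-voom, and 0 with the authors' constants, with windows of mean count at least 50, in windows where ChIP reached 2 times input, and in the 4 libraries without peptide alone. Leaving out 1 library gave 0 (DMSO replicate 2) to 88 (DMSO replicate 1), with 32 without Nutlin3a replicate 1 and 39 without Nutlin3a replicate 2. The member called was BBC3 or none (0 to 1 with 1 library left out): BBC3 passed with total counts (log2 1.63, adjusted p = 0.0311), with DESeq2 (1.57), and without either Nutlin3a replicate. Its log2 value lay between 1.51 and 2.07 in all 15 settings.

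Same-numbered libraries deviated together (r = 0.454), but with 2 pairs and no label for a shared batch the number was not taken as a pairing. With the replicate as a block, Nutlin3a against DMSO called 39 windows and 1 member, BBC3 (1.56, adjusted p = 2.63e-06), the difference of responses 5 windows, peptide against none 1 window under Nutlin3a and 4 under DMSO, each with 0 members. Signs turned under the block for peptide against none with Nutlin3a at BAK1 (−0.037), BCL2L11 (−0.0358) and MCL1 (0.0634), and with DMSO at BMF (0.0958).

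Leaving out 1 library gave 0 to 34 windows for the difference of responses, 2 to 139 for peptide with Nutlin3a and 0 to 53 for peptide with DMSO, and the authors' constants gave 55 for peptide with Nutlin3a. ChIP against input called 8747 windows and 7 members, and with mean count at least 50 it called 3223 windows and 3 members. A p53 motif was found in 3 members, in 1 with 2 mismatches and in 1 with no spacer. With 4 mismatches it was found in 4 members, against 15.2% of all promoters. With a spacer of up to 13 bases it was found in 3 members, against 12.8%.

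Further signs turned in the settings that follow. With total counts they were BID for Nutlin3a (0.018), BIK for the difference (−0.002), BAK1 (−0.0092) and BCL2L11 (−0.0077) for peptide with Nutlin3a, and BID for ChIP over input (−0.13). With the authors' constants they were, for Nutlin3a, BID (0.37), BMF (0.0839), BCL2L11 (0.0382), BCL2L1 (0.0602) and MCL1 (0.28), for peptide with Nutlin3a BBC3 (−0.0088), PMAIP1 (−0.0068), BAX (−0.0758), BAK1 (−0.27), BIK (−0.0308) and BCL2L11 (−0.19), and for peptide with DMSO PMAIP1 (−0.24) and BIK (−0.047). With mean count at least 50 they were BID for Nutlin3a (0.0816), BAK1 (−0.0681), BIK (−0.0788) and BCL2L11 (−0.0101) for the difference, BAK1 (−0.0711) and BCL2L11 (−0.065) for peptide with Nutlin3a, and BAK1 (−0.0314), BID (−0.48) and BIK (−0.26) for ChIP over input. The cause was not tested. With 1 library left out the range crossed 0 for Nutlin3a at PMAIP1 (−0.16 to 0.34), BID (−0.35 to 0.19), BIK (−0.0385 to 0.30) and MCL1 (−0.47 to 0.12). For the difference it did so at BAK1 (−0.026 to 0.21), BIK (−0.11 to 0.23) and BCL2L11 (−0.16 to 0.55). For peptide with Nutlin3a it did so at BAX (−0.038 to 0.43), BAK1 (−0.10 to 0.14) and BCL2L11 (−0.29 to 0.42). For peptide with DMSO it did so at PMAIP1 (−0.21 to 0.29), BMF (−0.34 to 0.18), BCL2L1 (−0.24 to 0.0318) and BCL2L11 (−0.29 to 0.0684). BMF gave no value with mean count at least 50, nor did members other than PMAIP1, BAX, BCL2L1 and MCL1 with ChIP at least 2 times input.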
